A study of Sus scrofa with 23 samples.

Results

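Transcripts of the DLG, SHANK and HOMER scaffold genes of the postsynaptic density were measured in the prefrontal cortex of young pigs given psilocybin or saline. The set was defined by name as DLG1, DLG2, DLG3, DLG4, SHANK1, SHANK2, SHANK3, HOMER2 and HOMER3. Of these 9 names, 7 matched a row among the 25880 genes of the count table, and all 7 passed the filter on low counts that left 15049 genes. SHANK1 and SHANK3 matched no row by symbol and were not analysed here.

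Psilocybin had been given 1 day before death to 6 animals and 1 week before to 6 others. Saline had been given 1 day before death to 5 animals and 1 week before to 6 others. All were female, adolescent slaughter pigs of 20 kg from Denmark. Psilocybin was a single intravenous dose of 0.08 mg/kg to awake, freely moving animals, and the controls received saline by the same route. The labels also divide the animals into 2 batches, without saying what a batch was, and each group had 3 animals in each batch except the saline 1 day group, with 3 in batch 2 and 2 in batch 1.

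The postsynaptic density is the protein-rich layer under the membrane of an excitatory synapse, where scaffold proteins hold glutamate receptors, adhesion molecules and signalling enzymes in place. DLG proteins sit near the membrane and bind the tails of NMDA receptors, potassium channels and the auxiliary subunits of AMPA receptors. DLGAP linkers join them to SHANK proteins deeper in the density. SHANK proteins bind HOMER proteins, which bind group I metabotropic glutamate receptors and calcium release channels. In the cortex these scaffolds are known from the spines of excitatory neurons and are studied for their part in synaptic plasticity.

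Positions are given on the pig build susScr11 as the span of the counted exons. DLG4 (ENSSSCG00000024285), which encodes PSD-95, lies at chr12:52547741-52573987 on the minus strand. DLG2 (ENSSSCG00000014904), the gene for PSD-93, spans chr9:17576151-18495897 on the minus strand. DLG3 (ENSSSCG00000012375), the gene for SAP102, lies at chrX:56472317-56527857, and DLG1 (ENSSSCG00000011833), the gene for SAP97, at chr13:132820911-133086841, both on the plus strand. SHANK2 (ENSSSCG00000033043) spans chr2:2503193-3013678 on the plus strand. HOMER2 (ENSSSCG00000001804) lies at chr7:52001579-52096828 and HOMER3 (ENSSSCG00000013919) at chr2:58913409-58923446, also on the plus strand. HOMER3 is the only one whose exons overlap those of another gene in the table, DDX49 on the opposite strand. Since counting ignored the strand, HOMER3 (mean count 344) and DDX49 (mean count 460.9) cannot be fully told apart.

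Library totals ranged from 9504421 to 18654626 assigned counts, and members had between 214 counts (HOMER3) and 14856 counts (DLG4) in a library. The cortical marker TBR1 was present in every library, with a median level of 93.3 CPM (counts scaled to a common library total). Of 13 markers of other brain regions and the choroid plexus found in the table, HOXA2, HOXB3, LMX1A and PAX2 had a median of 0 CPM. The highest were PPP1R1B (median 36.1 CPM) and DRD1 (16.1 CPM), which are abundant in striatum and also expressed in cortex, and ADORA2A (2.57 CPM). The choroid plexus marker TTR ranged from 0.176 to 9.93 CPM and EN2 from 0 to 2.21 CPM. The summed level of 9 neuron markers ranged from 7831.6 to 9222.3 CPM 1 day after psilocybin and from 8759.1 to 9125.7 CPM 1 day after saline. It ranged from 7894.6 to 9521.1 CPM 1 week after psilocybin and from 8095.4 to 9171.3 CPM 1 week after saline. In whole tissue, fewer cells of a type and less RNA per cell cannot be told apart.

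Some libraries stood apart. Animal 5 of saline 1 day, animal 1 of saline 1 week and animal 6 of psilocybin 1 week had the highest summed levels of 18 nuclear respiratory chain genes, 3228.8, 2678.1 and 2376.1 CPM. Animal 1 of each of the 4 groups, all in batch 1, had the 4 lowest levels of SHANK2, DLG3 and DLG2. Animal 1 of saline 1 week was thus in both sets. Treatment estimates that moved most without the first 3 libraries, and the batch and correlation results without the 4 animals, are given beside the main values.

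The scaffold genes differed widely in abundance. Divided by exon length, DLG4 stood highest at 131.3 ± 10.9 CPM per kb (SD, n = 23), and it was 3.64 to 5.91 times DLG2 in all 23 libraries. DLG2 followed at 30.0 ± 4.9 CPM per kb and was above DLG3 in all 23 libraries. Below these, neighbours in the order changed places between libraries. DLG3 had 17.0 ± 5.1, HOMER2 15.5 ± 1.87, DLG1 14.2 ± 1.41 and SHANK2 12.9 ± 4.5 CPM per kb (SD, n = 23 each). DLG3 was above HOMER2 in 13 of 23 libraries, HOMER2 above DLG1 in 16, and DLG1 above SHANK2 in 15, so that these 4 genes did not separate beyond their spread. Their order turned with the batch. DLG3 was above HOMER2 in 11 of 12 libraries of batch 2 and in 2 of 11 of batch 1, and DLG1 above SHANK2 in 4 of 12 and in 11 of 11. HOMER3, which in rodents is prominent in cerebellar Purkinje cells, was lowest at 8.97 ± 1.8 CPM per kb, and SHANK2 exceeded it in 12 of 12 libraries of batch 2 and in 6 of 11 of batch 1.

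**Figure D1:**
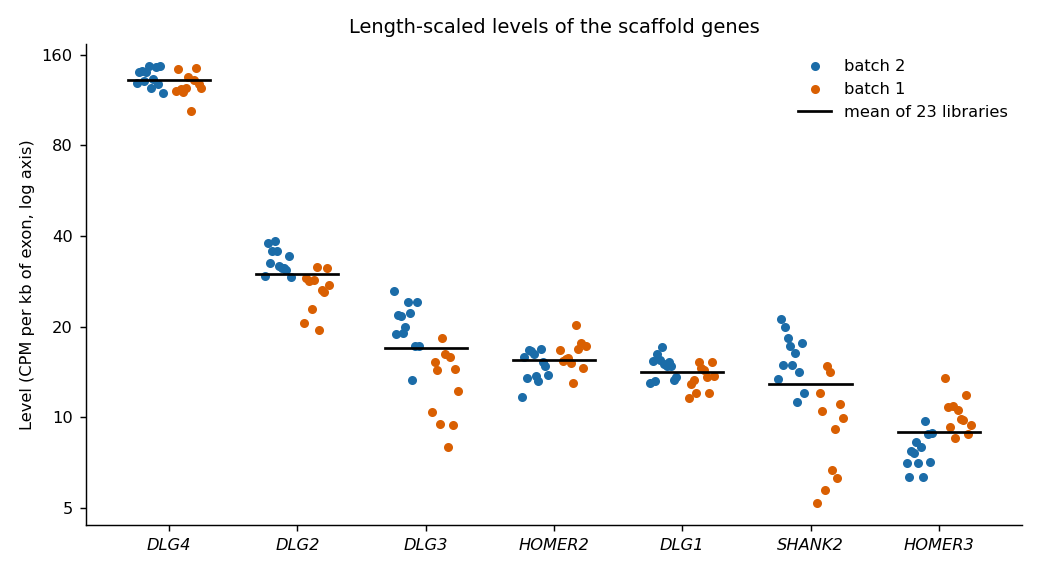
Level of each scaffold gene in CPM per kb of exon (log axis), 1 point per library, batch 2 left of batch 1, with the mean of the 23 libraries as a line. DLG4 stands above every other gene in each library, while DLG3, HOMER2, DLG1 and SHANK2 overlap and DLG3 and SHANK2 spread most.

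By mean level the linker genes and HOMER1, which belong to the same complex but not to the set, all lay below DLG4. Only DLGAP2 was below HOMER3. DLGAP3 had 90.7 ± 11.0, DLGAP4 44.9 ± 2.78, DLGAP1 42.9 ± 5.1 and DLGAP2 5.52 ± 1.61 CPM per kb (SD, n = 23). HOMER1, whose long forms couple metabotropic receptors and whose short form is induced by activity, had 29.8 ± 4.88 CPM per kb and was above HOMER2 in all 23 libraries. Within the DLG family DLG4 made up 68.4% ± 3.15 of the length-scaled counts, DLG2 15.5% ± 1.41, DLG3 8.71% ± 2.2 and DLG1 7.4% ± 0.79 (SD, n = 23). HOMER2 made up 63.5% ± 4.21 of the sum of HOMER2 and HOMER3. These levels depend on the annotated exon lengths, which were not checked for the isoforms in use.

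At 1 day, none of the 7 scaffold genes passed the test between psilocybin and saline, as none of all 15049 genes did (0.0% called; edgeR quasi-likelihood test, Benjamini-Hochberg adjusted p under 0.05). DESeq2 likewise called 0 members, and 0 members had an unadjusted p under 0.05 by either tool, against 2.83% of all genes by edgeR. The median log2 fold change was 0.07 for the members and 0.00 for all genes. Of the 7 estimates 4 were positive and 3 negative, and for every member the 2 groups overlapped, while 0.126% of all genes had no overlap. Estimates at this time were negative for 18 of 18 respiratory chain genes (median -0.31) and 17 of 17 ribosomal protein genes (median -0.29), with 0 called. The summed respiratory chain level was 1348.4 to 2050.5 CPM 1 day after psilocybin and 1403.0 to 3228.8 CPM 1 day after saline. Its part in the scaffold values was not tested. Without the 3 libraries highest in these genes, the log2 fold change of DLG3 was 0.04 and that of SHANK2 0.14, against 0.16 and 0.21 in all libraries. HOMER3 was then at 0.10, against 0.00, and DLG4 at 0.11, against 0.07.

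DLG4, the most abundant scaffold, had a lowest, median and highest level of 714.7, 791.2 and 847.0 CPM 1 day after psilocybin. The 5 saline 1 day animals had 614.1, 777.5, 731.2, 783.4 and 856.6 CPM. The groups overlapped over most of their range, and the log2 fold change was 0.07 with a 95% interval of -0.10 to 0.23.

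DLG2 had a lowest, median and highest level of 156.5, 223.6 and 288.8 CPM 1 day after psilocybin, against 149.0, 201.8, 243.7, 238.6 and 239.2 CPM in the saline 1 day animals. Both groups held 1 low library from batch 1, and the log2 fold change was 0.12 (95% interval -0.10 to 0.33). DLG3, a DLG protein that binds NMDA receptors and is affected in a human X-linked intellectual disability, had 28.3, 46.6 and 71.8 CPM as lowest, median and highest 1 day after psilocybin. The saline 1 day animals had 21.7, 43.4, 66.0, 60.5 and 36.4 CPM, a spread as wide as that of the treated animals, and the log2 fold change was 0.16 (95% interval -0.23 to 0.54). That estimate was 0.027 without animal 1 of saline 1 day and 0.28 without animal 2, the lowest and highest when each animal was left out in turn.

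DLG1, a DLG protein that also binds AMPA receptor subunits, had a lowest, median and highest level of 88.3, 99.8 and 117.5 CPM 1 day after psilocybin. The saline 1 day animals had 109.3, 104.1, 114.5, 113.1 and 116.7 CPM. In 5 of 6 psilocybin animals the level was below that of every saline animal, and the sixth was above them all, so the groups overlapped. The means were 100.9 ± 9.41 CPM (SD, n = 6) and 111.5 ± 4.94 CPM (SD, n = 5). The log2 fold change was -0.13 ± 0.08 (SE; 95% interval -0.29 to 0.03), with an edgeR unadjusted p of 0.0953 and an adjusted p of 1. Within batches it was -0.13 in batch 2 and -0.15 in batch 1.

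SHANK2 had a lowest, median and highest level of 38.0, 92.9 and 155.3 CPM 1 day after psilocybin, against 48.8, 66.9, 109.3, 119.2 and 81.6 CPM in the saline 1 day animals. Both the lowest and the highest of these 11 libraries belonged to psilocybin animals. The log2 fold change was 0.21 ± 0.22 (SE; 95% interval -0.23 to 0.66), the widest interval of the set at this time.

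HOMER2 had 40.7, 53.9 and 58.1 CPM as lowest, median and highest 1 day after psilocybin, against 70.6, 58.8, 47.5, 45.8 and 58.3 CPM in the saline 1 day animals. Its log2 fold change was -0.14 ± 0.10 (SE; 95% interval -0.35 to 0.07; edgeR unadjusted p = 0.178, adjusted p = 1), and the highest value was that of 1 saline animal. HOMER3 had 19.9, 26.7 and 42.4 CPM 1 day after psilocybin and 30.9, 30.8, 24.9, 19.9 and 30.6 CPM in the saline 1 day animals. The lowest level was 19.9 CPM in both groups, and the log2 fold change was 0.00 (95% interval -0.26 to 0.25).

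At 1 week, again none of the 7 members passed the test between psilocybin and saline, and neither did any of the 15049 genes (0.0% called). DESeq2 called 0 members, and 0 members had an unadjusted p under 0.05 by either tool, against 1.99% of all genes by edgeR. Estimates were positive for 6 of the 7 members, with a median log2 fold change of 0.09, against 0.00 for all genes. The groups overlapped for every member, and 0.0465% of all genes had no overlap. Without the 3 libraries high in respiratory chain genes, the log2 fold change of SHANK2 was 0.29, that of DLG3 0.13, that of DLG4 0.03 and that of HOMER3 0.01.

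SHANK2 had the largest estimate at this time. Its lowest, median and highest levels were 42.0, 117.1 and 146.3 CPM 1 week after psilocybin and 46.1, 84.5 and 128.6 CPM 1 week after saline. The psilocybin group had 2 animals above every saline animal and 1 below them all, with means of 109.8 ± 36.9 CPM and 86.6 ± 27.9 CPM (SD, n = 6 each). The log2 fold change was 0.34 ± 0.20 (SE; 95% interval -0.08 to 0.76; edgeR unadjusted p = 0.112, adjusted p = 1). It was 0.34 in batch 2 and 0.34 in batch 1. Without the 4 animals lowest in SHANK2, a removal chosen after seeing the data, it was 0.39 ± 0.13, with an edgeR unadjusted p of 0.00638 and an adjusted p of 1. DLG1 then had 0.15 ± 0.07 (edgeR unadjusted p = 0.0329, adjusted p = 1), and these were the 2 members with an unadjusted p under 0.05. Of all genes, 603 of 15060 had an edgeR unadjusted p under 0.05 in that setting. Leaving out the animals lowest in SHANK2 narrows its spread, so part of the fall in its p is set by that choice.

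DLG1 had a lowest, median and highest level of 91.7, 117.3 and 130.8 CPM 1 week after psilocybin, against 91.9, 104.3 and 117.2 CPM 1 week after saline. There were 3 psilocybin animals above every saline animal and 1 below them all. The means were 115.4 ± 13.4 CPM and 105.5 ± 8.91 CPM (SD, n = 6 each), and the log2 fold change was 0.12 ± 0.07 (SE; 95% interval -0.03 to 0.28; edgeR unadjusted p = 0.103, adjusted p = 1). The estimate was 0.22 in batch 2 and 0.02 in batch 1, and 0.08 without the 3 libraries high in respiratory chain genes.

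DLG4 had 710.9, 782.3 and 863.2 CPM as lowest, median and highest 1 week after psilocybin and 704.9, 753.7 and 866.2 CPM 1 week after saline. These ranges nearly coincided, and the 95% interval of the log2 fold change was -0.15 to 0.16 around 0.01. DLG2 had 174.0, 256.4 and 294.9 CPM after psilocybin and 198.4, 229.9 and 261.7 CPM after saline, with 3 psilocybin animals above every saline animal and 1 below them all. Its log2 fold change was 0.09 (95% interval -0.11 to 0.30). DLG3 had 25.9, 50.9 and 59.4 CPM after psilocybin and 25.8, 43.3 and 66.0 CPM after saline, so the saline group covered the whole psilocybin range. Its log2 fold change was 0.16 (95% interval -0.20 to 0.53).

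HOMER2 had 45.3, 55.3 and 57.9 CPM as lowest, median and highest 1 week after psilocybin, against 47.9, 52.3 and 61.1 CPM 1 week after saline. The groups overlapped, and the log2 fold change was 0.01 (95% interval -0.19 to 0.21). Its estimate was 0.17 in batch 2 and -0.17 in batch 1, opposite in sign with neither past the test. HOMER3 had 22.2, 26.4 and 34.2 CPM after psilocybin and 22.4, 27.8 and 37.5 CPM after saline, also with overlap, and a log2 fold change of -0.06 (95% interval -0.30 to 0.19).

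**Figure D2:**
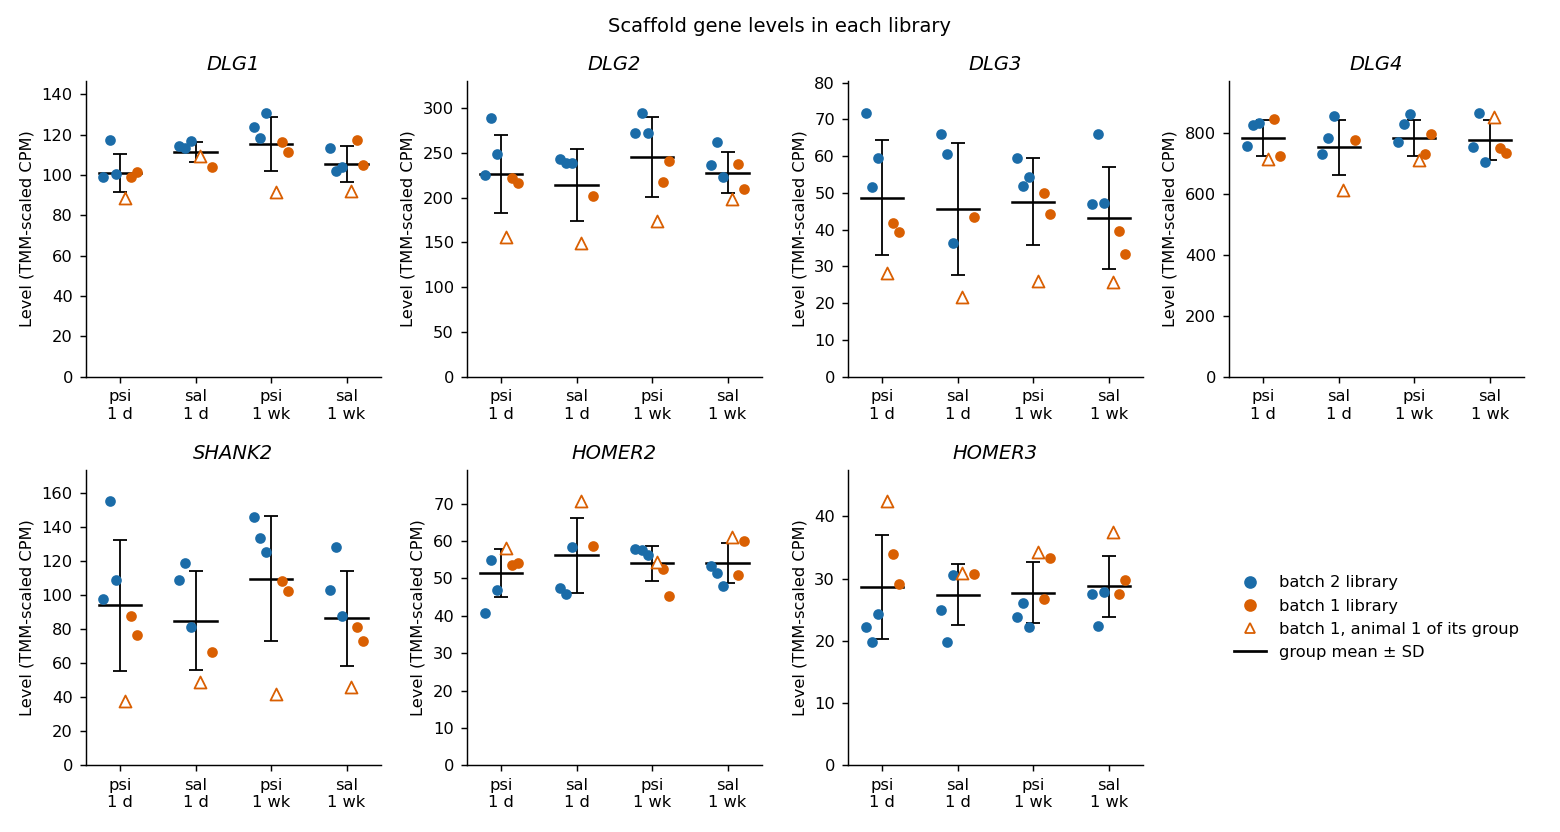
Level of each scaffold gene in CPM in every library, by group (psi, psilocybin; sal, saline; d, day; wk, week), with batch 2 and batch 1 in separate colours and bars for the group mean ± SD. Open triangles mark animal 1 of each group, which has the lowest SHANK2, DLG3 and DLG2 value of its group.

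Averaged over both times, no scaffold gene passed the test between psilocybin and saline (0 of 7 by edgeR and by DESeq2; 0.0% of all genes by edgeR). None had an unadjusted p under 0.05 by either tool, against 3.04% of all genes by edgeR. SHANK2 had a log2 fold change of 0.28 ± 0.15 (SE; 95% interval -0.03 to 0.58), with an edgeR unadjusted p of 0.076 and an adjusted p of 0.998. Without the 4 animals lowest in SHANK2 it was 0.30 ± 0.09 (edgeR unadjusted p = 0.00411, adjusted p = 0.997). As these animals were picked for low SHANK2, leaving them out narrows its spread, and part of the fall in p is set by that choice. Of all genes, 659 of 15060 had an edgeR unadjusted p under 0.05 in that setting. DLG2 had the next smallest p, with 0.10 ± 0.07 (SE; 95% interval -0.05 to 0.25; edgeR unadjusted p = 0.167, adjusted p = 0.998). The narrowest intervals were those of DLG1, from -0.11 to 0.10, and DLG4, from -0.08 to 0.15. DLG3 had the second largest estimate, 0.16 (95% interval -0.11 to 0.43; 0.09 without the 3 libraries high in respiratory chain genes), HOMER2 -0.07 (-0.21 to 0.08) and HOMER3 -0.03 (-0.21 to 0.15). This average uses the same animals as the comparisons at 1 day and at 1 week.

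The psilocybin effect at 1 week was set against that at 1 day by an interaction term. None of the 7 members passed (0.0% of all genes called). DLG1 was the only member with an unadjusted p under 0.05, by edgeR and by DESeq2, against 2.02% of all genes by edgeR. Its effects of 0.12 at 1 week and -0.13 at 1 day differed by 0.26 ± 0.11 on the log2 scale (SE; 95% interval 0.04 to 0.48; edgeR unadjusted p = 0.0232, adjusted p = 1). The difference was 0.36 in batch 2 and 0.17 in batch 1, and 0.20 without the 3 libraries high in respiratory chain genes (edgeR unadjusted p = 0.069, adjusted p = 1). HOMER2 had the next smallest p, with a difference of 0.15 ± 0.14 (SE; edgeR unadjusted p = 0.308, adjusted p = 1). SHANK2, with a difference of 0.12 (95% interval -0.49 to 0.74), had the widest interval of the set.

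Between the times within a treatment, 0 of 7 members passed in either treatment (0.0% of all genes called in each, by edgeR), and DESeq2 called 0 members. In psilocybin animals DLG1 averaged 115.4 ± 13.4 CPM at 1 week and 100.9 ± 9.41 CPM at 1 day (SD, n = 6 each). Its log2 fold change was 0.19 ± 0.07 (SE; 95% interval 0.04 to 0.34; edgeR unadjusted p = 0.0152, adjusted p = 0.999). It was the only member with an unadjusted p under 0.05 there by either tool, against 3.18% of all genes by edgeR. SHANK2 was next at 0.24 ± 0.20 (SE; edgeR unadjusted p = 0.252, adjusted p = 0.999). In saline animals 0 members had an unadjusted p under 0.05 by either tool, against 2.01% of all genes by edgeR. DLG2 there had a log2 fold change of 0.14 ± 0.11 (SE; edgeR unadjusted p = 0.2, adjusted p = 1) and DLG1 of -0.07 ± 0.08 (SE; unadjusted p = 0.4, adjusted p = 1).

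The composition of each family was also compared, since it does not depend on the scaling between libraries. At 1 day DLG1 made up 6.85% ± 0.462 of the length-scaled DLG counts after psilocybin (SD, n = 6) and 7.92% ± 1.07 after saline (SD, n = 5). The difference of -1.07 percentage points had an exact two-sided permutation p of 0.02 with treatment labels exchanged within batches. The highest DLG1 share of all 23 libraries, 9.82%, was that of animal 1 of saline 1 day. This animal, 1 of the 4 lowest in SHANK2, DLG3 and DLG2, raises the saline mean and SD. The smallest p that design allows is 0.005, and adjusted over 12 comparisons the p was 0.24. Of the DLG shares at 1 week, that of DLG4 differed most, at 67.4% ± 3.15 after psilocybin and 68.9% ± 3.33 after saline (SD, n = 6 each; exact permutation p = 0.34, adjusted p = 0.79). HOMER3 took 37.6% ± 5.38 of the HOMER2 and HOMER3 sum 1 day after psilocybin (SD, n = 6) and 35.0% ± 2.28 after saline (SD, n = 5; exact permutation p = 0.27, adjusted p = 0.79). No share passed after adjustment, and the SHANK family could not be divided with SHANK2 alone.

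The members did differ between the batches. Of 7 members 4 passed the test, 3 higher and 1 lower in batch 2, while 32.9% of all genes passed, 16.1% higher and 16.8% lower. SHANK2 had a lowest, median and highest level of 81.6, 114.3 and 155.3 CPM in the 12 libraries of batch 2, against 38.0, 73.0 and 108.4 CPM in the 11 of batch 1. It was higher in batch 2 by 0.75 ± 0.15 on the log2 scale (SE; edgeR adjusted p = 0.000911), and 8 libraries of batch 2 lay above all of batch 1. DLG3 had 36.4, 56.9 and 71.8 CPM in batch 2 and 21.7, 39.3 and 50.0 CPM in batch 1, a log2 fold change of 0.66 ± 0.13 (SE; edgeR adjusted p = 0.000834). DLG2 had 223.6 to 294.9 CPM in batch 2 (mean 253.8 ± 23.9, SD, n = 12) and 149.0 to 240.5 CPM in batch 1 (mean 202.3 ± 30.6, SD, n = 11), a log2 fold change of 0.34 ± 0.07 (SE; edgeR adjusted p = 0.00152). HOMER3 went the other way, with 19.9, 24.1 and 30.6 CPM in batch 2 and 26.8, 30.9 and 42.4 CPM in batch 1, a log2 fold change of -0.41 ± 0.09 (SE; edgeR adjusted p = 0.00114). The 2 batches overlapped for each of the 7 members, and 0.545% of all genes had no overlap.

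DLG1, HOMER2 and DLG4 did not pass between batches in edgeR. DLG1 had a log2 fold change of 0.12 ± 0.05 (SE; edgeR adjusted p = 0.0782), which passed in DESeq2 (adjusted p = 0.0257) and in edgeR with RLE size factors (adjusted p = 0.0437). It also passed in edgeR without animal 5 of saline 1 day (adjusted p = 0.0396) or without animal 2 of saline 1 week (adjusted p = 0.0300). HOMER2 had -0.13 ± 0.07 (SE; edgeR adjusted p = 0.143). DLG4 averaged 797.6 ± 54.5 CPM in batch 2 (SD, n = 12) and 750.1 ± 67.4 CPM in batch 1 (SD, n = 11), with a log2 fold change of 0.09 ± 0.06 (SE; edgeR adjusted p = 0.196). DLG4 thus made up 66.4% ± 1.87 of the DLG counts in batch 2 (SD, n = 12) and 70.6% ± 2.75 in batch 1 (SD, n = 11), given here without a test.

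**Figure D3:**
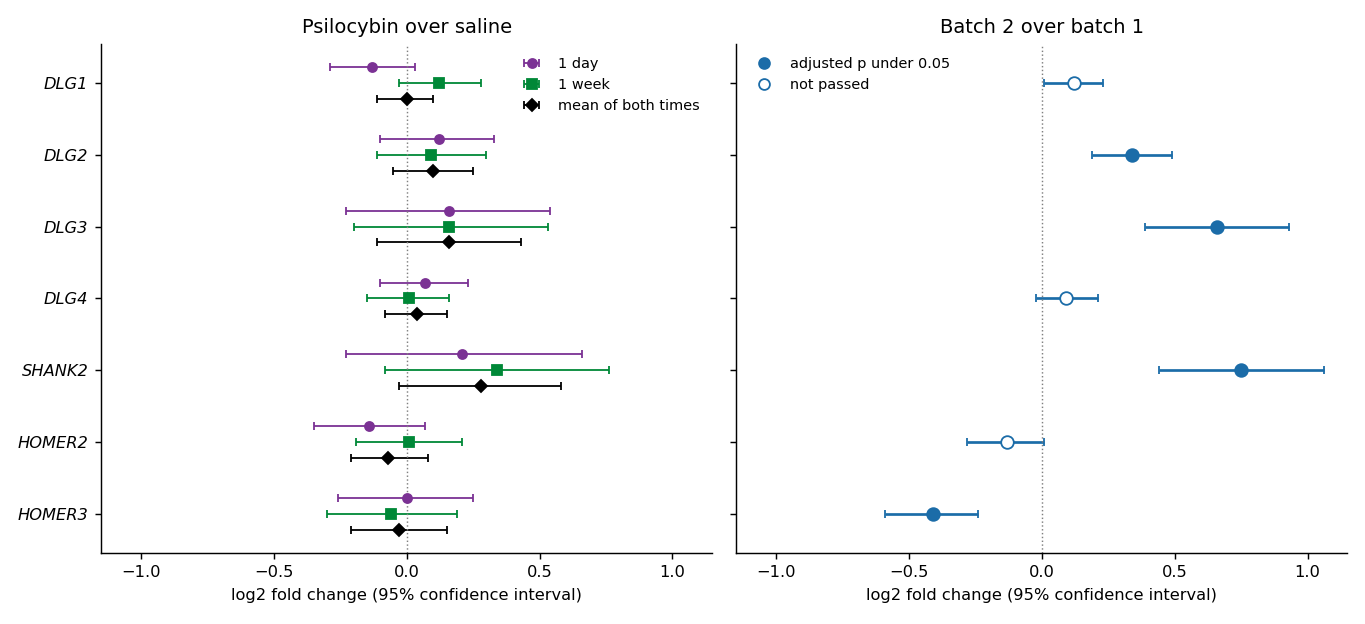
Log2 fold change of each scaffold gene with its 95% confidence interval, for psilocybin over saline (left; 1 day, 1 week and their mean) and for batch 2 over batch 1 (right; filled points have an adjusted p under 0.05). Every treatment interval includes 0, while SHANK2, DLG3, DLG2 and HOMER3 passed between batches.

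Other markers moved with the batch too. Markers counted here as higher or lower were called (edgeR adjusted p under 0.05), as were 32.9% of all genes. Of the microglia markers, 8 of 8 tested were lower in batch 2, with a median summed level of 248.4 CPM (162.4 to 324.3) against 350.4 CPM (255.5 to 396.6) in batch 1. The neuron sum had medians of 8699.7 CPM in batch 2 (range 7845.2 to 9521.1) and 8693.2 CPM in batch 1 (range 7831.6 to 9171.3), but its genes moved both ways. Of 9 neuron markers 3 were higher in batch 2 and 2 lower, MAP2 by 0.56 ± 0.09 on the log2 scale and RBFOX3 at -0.32 ± 0.06 (SE). Of 7 excitatory neuron markers 4 were called higher and 0 lower, while 2 of the 7 estimates were negative. The median log2 fold change was 0.23, in the direction of SHANK2, DLG3 and DLG2. The sum of the excitatory markers had medians of 1671.2 CPM in batch 2 (range 1499.8 to 2159.2) and 1626.7 CPM in batch 1 (range 1441.9 to 1830.5). Of 8 astrocyte markers 4 were called higher and 0 lower, while 4 of the 8 estimates were negative. Of 7 cortex identity markers, which share members such as TBR1 and NEUROD6 with the excitatory list, 4 were called higher and 2 lower. Of 8 inhibitory neuron markers 2 were called higher and 1 lower, and of 8 oligodendrocyte precursor markers also 2 and 1. Of 6 endothelial and mural markers 1 was called, higher, and of 7 oligodendrocyte markers 0 were called. The ribosomal protein sum had medians of 2991.1 CPM in batch 2 (range 2526.8 to 6652.2) and 3837.2 CPM in batch 1 (range 2960.7 to 5682.3), with 2 of 17 genes lower and 0 higher. The part of these markers in the batch difference of the scaffolds was not tested.

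In 4 animals of batch 1 the levels of SHANK2, DLG3 and DLG2 were below those of all other libraries. Animal 1 of each group had 38.0 to 48.8 CPM of SHANK2, and the other 19 libraries had 66.9 to 155.3 CPM. For DLG3 the same 4 animals had 21.7 to 28.3 CPM and the others 33.3 to 71.8 CPM, and for DLG2 they had 149.0 to 198.4 CPM and the others 201.8 to 294.9 CPM. Of all genes, 3.28% were below the other 19 libraries in all of these 4, and 1.99%, with no member among them, were above. DLG4, at 614.1 to 852.8 CPM, overlapped the others (704.9 to 866.2 CPM), and so did DLG1, HOMER2 and HOMER3. Since these animals were picked for low SHANK2 and DLG3, these values are a description without a test.

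The 4 animals had a summed neuron marker level of 8005.6 to 9171.3 CPM, against 7831.6 to 9116.2 CPM in the other 7 libraries of batch 1. By mean log2 level centred on all libraries, their astrocyte markers had a median of -0.31 (-0.63 to 0.09) against -0.03 (-0.2 to 0.16). Oligodendrocyte precursor markers had medians of -0.22 (-0.29 to -0.14) against -0.05 (-0.31 to 0.22). Excitatory neuron markers had -0.09 (-0.33 to 0.03) against -0.04 (-0.2 to 0.05). Endothelial and mural markers had -0.13 against -0.02 and inhibitory neuron markers -0.02 against -0.03. Oligodendrocyte markers, 0.11 (-0.14 to 0.3) against -0.13 (-0.62 to 0.52), and microglia markers, 0.32 (0.3 to 0.4) against 0.25 (-0.14 to 0.53), went the other way. In each of these lists the ranges overlapped. The summed ribosomal protein genes of the 4 animals had 3837.2 to 5682.3 CPM, against 2960.7 to 3929.8 CPM. Their summed respiratory chain genes had 2050.5 to 2678.1 CPM, against 1764.9 to 2103.5 CPM. The top of both ranges was animal 1 of saline 1 week, also 1 of the 3 libraries that stood apart. Whether any of these marker or gene levels bears on the low scaffold levels was not tested. Without the 4 animals, SHANK2 (log2 fold change 0.51, adjusted p = 0.00313), DLG3 (0.46, adjusted p = 0.0135), DLG2 (0.23, adjusted p = 0.0127) and HOMER3 (-0.30, adjusted p = 0.0299) still passed between batches in edgeR. The 4 animals, all in batch 1, were picked for low SHANK2 and DLG3. Leaving them out thus lowers the batch difference of these 2 genes and narrows their spread in batch 1 by that choice. The number of all genes called fell to 1794 without the 4 animals, against 4955 with them.

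Beyond group and batch, pairs of members were correlated between animals. Of 21 pairs, 10 passed by Pearson's r on log2 CPM with group and batch means removed (6 positive, 4 negative; permutation test, Benjamini-Hochberg adjusted over 21 pairs), and 9 passed by Spearman's rho. These 10 pairs had an absolute r of at least 0.50, as did 15.4% of all pairs among the 15049 genes. DLG2 and SHANK2 had an r of 0.84 and a rho of 0.78 (n = 23; permutation adjusted p of r 0.00021), and r was 0.73 without the 2 libraries farthest from the median. DLG3 and SHANK2 had an r of 0.73 and a rho of 0.65 (permutation adjusted p of r 0.00063), and DLG1 and SHANK2 an r of 0.70 and a rho of 0.59 (permutation adjusted p of r 0.00098). Without the farthest 2 libraries these were 0.74 and 0.57. SHANK2 and HOMER3 were opposed, with an r of -0.68 and a rho of -0.69 (permutation adjusted p of r 0.00168; r -0.62 without 2). So were DLG3 and HOMER2, with an r of -0.65 and a rho of -0.67 (permutation adjusted p of r 0.00365; r -0.56 without 2). DLG4 passed with DLG2 (r 0.61), while its r was 0.05 with DLG1 and 0.04 with HOMER3. Without the 3 libraries high in respiratory chain genes 12 pairs passed by r and 8 by rho, with an absolute r of at least 0.54, reached by 10.8% of all gene pairs. DLG4 then also passed by r with SHANK2 (r 0.60; permutation adjusted p = 0.0128) and with DLG3 (r 0.59; permutation adjusted p = 0.0136), against r values of 0.28 and 0.19 in all libraries. DLG2 and HOMER3 (r -0.55) also passed there, and DLG3 and HOMER3 (r -0.46) did not.

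Fewer pairs passed without the 4 low animals. As these were picked for low SHANK2 and DLG3, leaving them out narrows the range of the genes correlated, and part of the fall in r is set by that choice. In the other 19 libraries 3 pairs passed by r and 1 by rho, with an absolute r of at least 0.61, reached by 8.52% of all gene pairs. DLG2 and SHANK2 had an r of 0.62, DLG3 and HOMER2 an r of -0.61, and SHANK2 and HOMER3 an r of -0.61, each with a permutation adjusted p of 0.0381. DLG3 and SHANK2 (r 0.40) and DLG1 and SHANK2 (r 0.30) did not pass there. Within batch 2 alone the same 3 pairs passed by r, with 0.77, -0.73 and -0.75, each with a permutation adjusted p of 0.0496. By rho 0 passed. Within batch 1 alone, which holds the 4 animals, 9 pairs passed by r, and DLG3 and SHANK2 had an r of 0.89. The share of all gene pairs reaching such r was not computed within a batch, so these counts have no background to be read against. Points share the library's depth and scaling, which was not separated from the members. In every setting the permutation took the residuals as free points, although fitted means had been removed, so its p-values may be too small. This matters most in the smaller sets, where adjusted p-values of 0.0381 and 0.0496 lay close to the threshold and these pairs might not pass.

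**Figure D4:**
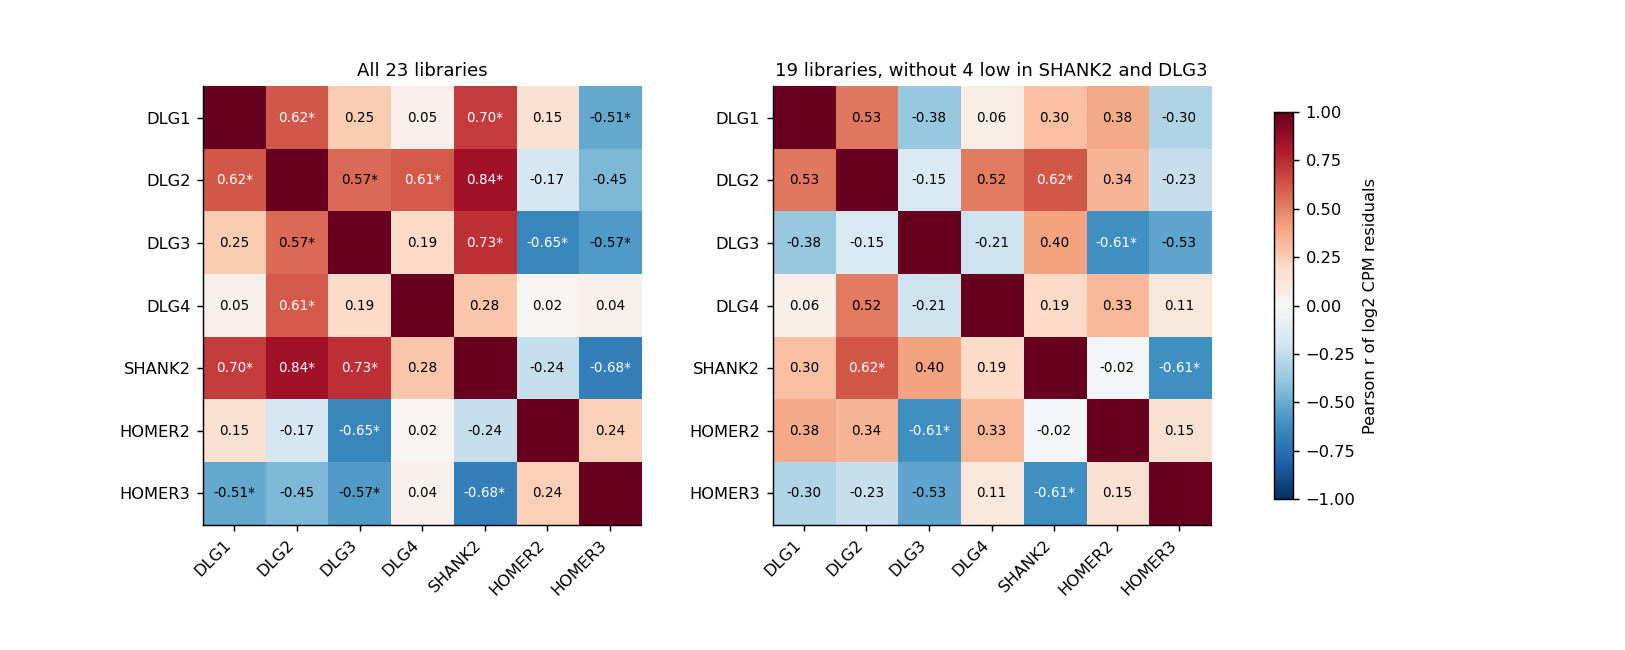
Pearson's r between scaffold genes, from log2 CPM with group and batch means removed, in all 23 libraries (left) and in the 19 left without animal 1 of each group (right). Asterisks mark an adjusted permutation p under 0.05, for 10 pairs on the left and 3 on the right, and the diagonal is 1 by definition.

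Among 12488 other genes with a symbol, those whose residual log2 CPM followed a member most closely over the 23 libraries are given as a description. SHANK2 was closest to PTPN4 (r 0.97) and TRIM66 (r 0.95), and DLG3 to KIF3C (r 0.97) and OSBP (r 0.95). DLG2 was closest to GPD2 (r 0.93) and CTNND2 (r 0.93), CTNND2 encoding the synaptic protein delta-catenin. DLG1 was closest to LARP4 (r 0.91) and TBL1XR1 (r 0.86), and DLG4 to PSAT1 (r 0.91) and TNPO2 (r 0.90). For HOMER3 these were CCM2 (r 0.83) and TP53I13 (r 0.80), and for HOMER2 they were SLC31A2 (r 0.78) and APLF (r 0.76). Each is the highest of many correlations and shares the 4 low animals.

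The partners of the scaffolds were described by 6 lists, none of which had a called gene between psilocybin and saline at either time (0.0% of all genes called). At 1 day, estimates were positive for 4 of 5 DLGAP linkers and HOMER1, with a median log2 fold change of 0.07, and DLGAP3 had 0.12 ± 0.10 and DLGAP4 0.05 ± 0.07 (SE). Of 22 other postsynaptic scaffolds 15 were positive (median 0.04), with MPP2 at 0.16 ± 0.09 and LZTS3 at 0.10 ± 0.07. Of 30 enzymes and regulators 21 were positive (median 0.06), with the actin-associated SYNPO at 0.20 ± 0.12 and the exchange factor IQSEC2 at 0.12 ± 0.09. Over all genes the median was 0.00.

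Among 15 ionotropic glutamate receptor and auxiliary subunit genes, 9 estimates were positive at 1 day (median 0.04). GRIN2C, an NMDA receptor subunit, had 1.58 ± 0.67 (SE; edgeR unadjusted p = 0.0259, adjusted p = 1), which was 0.31 without animal 1 of psilocybin 1 day and between 1.31 and 1.84 without any one of 21 others. Without animal 5 of saline 1 week it was not among the genes tested. CACNG2, the auxiliary subunit stargazin, had -0.17 ± 0.10. Of 14 genes listed as Homer-bound receptors and calcium channels 11 were positive (median 0.05), with the channel TRPC4 at 0.24 ± 0.19 and the small GTPase CDC42 at -0.12 ± 0.10. CDC42, DNM3 and PLCB1 are in that list but encode neither a receptor nor a channel. Of 17 genes listed as adhesion proteins and channels bound by DLG or SHANK proteins 13 were positive (median 0.07), with ADGRB1 at 0.13 ± 0.07 and neuroligin NLGN3 at 0.18 ± 0.10 (SE). The binding of each listed gene's protein was not checked here.

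At 1 week the Homer-bound list had positive estimates for 14 of 14 genes, with a median log2 fold change of 0.15 against 0.00 for all genes, but none passed. GRM5, the metabotropic receptor that HOMER proteins bind, had 0.40 ± 0.24 and the calcium release channel ITPR1 0.24 ± 0.19 (SE). Of the adhesion proteins and channels 11 of 17 were positive (median 0.02), with IGSF9B at 0.61 ± 0.24 (SE; edgeR unadjusted p = 0.0169, adjusted p = 1) and the potassium channel KCNA2 at 0.71 ± 0.34 (SE; edgeR unadjusted p = 0.0491, adjusted p = 1). Of the genes listed as other scaffolds 13 of 22 were positive (median 0.04), with MPP3 at 0.28 ± 0.11 (SE; edgeR unadjusted p = 0.0156, adjusted p = 1). PSD3, which is in that list but encodes an exchange factor, had 0.62 ± 0.34 (SE). The remaining lists had medians of 0.01 for the linkers and HOMER1, 0.05 for the enzymes and 0.01 for the ionotropic receptors. In these, DLGAP2 had 0.28 ± 0.18, DLGAP3 -0.06 ± 0.10, SIPA1L1 0.20 ± 0.12, the NMDA receptor subunit GRIN2A 0.56 ± 0.28 and CACNG3 -0.09 ± 0.07 (SE).

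Between batches the same lists held called genes mostly in the direction of SHANK2, DLG3 and DLG2, beside 16.1% of all genes higher and 16.8% lower. Of the Homer-bound genes 10 of 14 were higher in batch 2 and 0 lower, among them GRM5 by 1.04 ± 0.17, ITPR1 by 0.69 ± 0.14, the dynamin DNM3 by 0.41 ± 0.08 and the phospholipase PLCB1 by 0.31 ± 0.07 on the log2 scale (SE). Of the genes listed as other scaffolds 10 of 22 were higher and 2 lower. Among these, the exchange factor PSD3 was higher by 1.45 ± 0.25 and CASK by 0.41 ± 0.09. MAGI2 (0.33 ± 0.08) and MAGI1 (0.34 ± 0.09) no longer passed without the 4 animals (0.24 with adjusted p = 0.0647, and 0.27 with adjusted p = 0.0621). That setting has fewer libraries, and 1794 of all genes were called in it, against 4955 in all libraries. Of the enzymes 13 of 30 were higher and 3 lower, with KIF1B higher by 0.37 ± 0.07 and the palmitoyl transferase ZDHHC2 by 0.39 ± 0.08, and the calmodulin-binding NRGN at -0.36 ± 0.07 (SE).

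Of the ionotropic receptor genes 4 of 15 were called higher in batch 2 and 2 called lower. GRIN2A was higher by 0.94 ± 0.21, GRIN3A by 0.42 ± 0.09 and the AMPA receptor subunit GRIA1 by 0.30 ± 0.08, and CACNG2 had -0.36 ± 0.07 (SE). Of the adhesion proteins and channels 6 of 17 were called higher and 1 lower, with KCNA2 higher by 1.48 ± 0.25, IGSF9B by 1.16 ± 0.18, NLGN3 by 0.47 ± 0.07 and LRRTM2 by 0.47 ± 0.08 (SE). Of the linkers and HOMER1 2 of 5 were called higher, DLGAP2 by 0.58 ± 0.13 and DLGAP1 by 0.22 ± 0.06 (SE). In the smaller set without the 4 animals, where fewer of all genes were called, DLGAP1 no longer passed (0.18, adjusted p = 0.0700). All p-values in this comparison were from edgeR and adjusted over 15049 genes.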

How the data were processed

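Poly-A selected RNA of the prefrontal cortex of 23 pigs, 1 library each, was sequenced. The authors deposited expected counts for 25880 genes. Per the submitters' processing notes, fastp 0.20.0, STAR 2.6c and featureCounts 1.5.1 were used with the pig build susScr11. Per the file headers, reads overlapping several genes were shared in fractions and strand was ignored. The deposited counts were rounded to whole numbers, which changed library totals by at most 0.0013%. Symbols matched 14857 genes, and 12495 of the tested genes have one.

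Genes were filtered with filterByExpr (minimum count 10, total 15), scaled by TMM and tested with edgeR 4.0.16 (robust quasi-likelihood F test, two-sided, R 4.3.3) in 1 model of 4 groups and batch, with Benjamini-Hochberg adjustment over 15049 genes. DESeq2 1.42.0 was an alternative. The procedure was tested on simulated data. Levels are TMM-scaled CPM, in text also divided by exon length. Correlations used log2 CPM (prior count 2) and 100000 resamples, over 21 pairs instead of the 36 planned, and shares 12 comparisons instead of 18, since 2 names had no row. Other settings were DESeq2, size factors by RLE, filtering at 1 CPM in 5 libraries or not at all, fits without a batch term, in each batch and in the compared groups only, omission of each animal, removal of 3 libraries that stood apart in earlier results, and, chosen after seeing the data, removal of 4 libraries low in SHANK2 and DLG3. For the correlations and shares, a prior count of 0.5 and counts not divided by length were also tried.

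The members and lists were chosen with earlier results of these data known. The rule named every member, the 2 or 4 genes with the smallest p in each list (all called genes where 5 or fewer passed), and the 2 genes most like each member. Some genes this rule would name are not reported here. Animal numbers are not shared between groups. The series states 6 animals per group, and the sixth saline 1 day animal was not analysed here.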

Additional observations from a re-analysis of the deposited data

How the results depend on the processing

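No paired analysis was run. Many psilocybin and saline animals of the same time and batch have adjacent numbers, but the labels name no pairs. Under the alternatives run, the number of members called stayed at 0 in the comparisons of treatment and time. Between batches it stayed at 4, except for 5 with DESeq2, with RLE size factors, without animal 5 of saline 1 day and without animal 2 of saline 1 week, where DLG1 was added. No family share passed under any alternative. The values below are log2 fold changes that changed sign. None of them passed the test, and the cause was not tested.

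For psilocybin against saline at 1 day, HOMER3 was 0.096 without the 3 libraries standing apart, 0.061 with no batch term and 0.19 in batch 1 alone. At 1 week, batch 1 alone gave -0.032 for DLG2, -0.065 for DLG4 and -0.17 for HOMER2, and batch 2 alone gave 0.029 for DLGAP3. HOMER2 was -0.00045 with RLE size factors and with DESeq2, -0.0017 with no batch term and -0.00083 with only the groups compared, and HOMER3 was 0.011 without the 3 libraries. For the mean of both times, DLG1 was 0.046 in batch 2 alone and 0.015 without the 4 low libraries, and HOMER2 was 0.032 in batch 2 alone. HOMER3 was 0.054 without the 3 libraries, 0.0053 with no batch term and 0.094 in batch 1 alone.

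For the interaction, DLG2 was 0.029 with no batch term, 0.15 in batch 2 alone and 0.07 without the 4 libraries. Batch 2 alone gave -0.12 for DLG3, 0.063 for DLG4 and 0.084 for HOMER3, and removal of the 4 libraries gave 0.051 for DLG4 and 0.073 for HOMER3. For 1 week against 1 day in psilocybin animals, DLG3 was 0.014 without the 3 libraries and 0.13 in batch 1 alone, and DLG4 was 0.01 in batch 2 alone. HOMER2 was -0.13 in batch 1 alone, and HOMER3 was 0.1 in batch 2 alone and 0.035 without the 4 libraries. In saline animals, DLG2 was -0.026 in batch 2 alone, DLG3 0.0084 in batch 1 alone, DLG4 -0.053 in batch 2 alone and -0.059 without the 4 libraries, and HOMER3 -0.038 without the 4 libraries.

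When each animal was left out in turn, HOMER3 at 1 day ranged from -0.099 to 0.094. At 1 week DLG4 ranged from -0.029 to 0.056 and HOMER2 from -0.03 to 0.067. For the mean of both times DLG1 ranged from -0.023 to 0.021 and HOMER3 from -0.078 to 0.021. The interaction ranged from -0.076 to 0.054 for DLG2, from -0.12 to 0.13 for DLG3, from -0.1 to 0.00096 for DLG4 and from -0.15 to 0.043 for HOMER3. Between times in psilocybin animals DLG3 ranged from -0.11 to 0.068, DLG4 from -0.033 to 0.035 and HOMER3 from -0.077 to 0.068. In saline animals the ranges were -0.14 to 0.11 for DLG3, -0.0023 to 0.1 for DLG4, -0.12 to 0.017 for HOMER2 and -0.036 to 0.12 for HOMER3.

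Of all genes, DESeq2 called 1 between times in psilocybin animals and 1 in saline animals, and edgeR called 0 to 1 in each when animals were left out. Between batches 1794 genes were called without the 4 libraries, which leaves fewer samples, against 4955 with all. The pairs of members past the threshold numbered 3 in batch 2 alone and 3 without the 4 libraries, against 10 in all libraries. Their permutation p-values took the residuals as free points and may be too small. The spread between animals limits these comparisons, since the widest 95% interval of a treatment effect, that of SHANK2 at 1 day, reached 0.45 on the log2 scale to each side.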
